A study of Mus musculus with 4 samples.

Results

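The genes described here are 10 genes of the integrated stress response, chosen by name as the rows of the deposited table called Atf4, Atf5, Ddit3, Ddit4, Trib3, Chac1, Asns, Sesn2, Atf3 and Psat1. All 10 were found, among 21738 listed genes, and all 10 passed the filter on low values that left 12585 genes for testing. The libraries hold RNA from immunoprecipitates of mouse neurospheres, which are suspended clusters grown from neural stem cells and their progeny. In 2 libraries an antibody against 4E-T was used, and in the other 2 a control antibody (anti-IgG). Every library came from wild-type (WT) CD1 mice of postnatal day 7 or 8, whose V-SVZ, the stem cell niche along the lateral ventricles, gave neurospheres that were cultured for 7 days. 4E-T is a partner of the translation factor eIF4E and helps to hold mRNAs untranslated in P-bodies. The comparison asks which transcripts had higher levels, on the deposited scale of the libraries, in 4E-T immunoprecipitates than in the control. A higher level on that scale need not mean a larger share of the reads. The titles give the 4 libraries as experiment 1 and experiment 2, each with 1 library per antibody, and nothing in them says whether animals were pooled. Because each library has its own scale, the amount of RNA recovered with each antibody is unknown. No library of the RNA before immunoprecipitation is among the 4, so a transcript's level in the cells was not measured. Fewer cells with a transcript also cannot be told apart from less of it per cell.

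The integrated stress response is a shared reaction to amino acid shortage, unfolded protein in the endoplasmic reticulum (ER), viral RNA and lack of haem. Stress kinases phosphorylate the initiation factor eIF2, which lowers protein synthesis in general, while a few mRNAs with short upstream reading frames, among them Atf4, Atf5 and Ddit3, are translated better. The ATF4 protein then switches on genes for amino acid synthesis and uptake, for redox balance and for feedback. The pathway is known as a link between nutrient supply and protein synthesis.

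The 3 members called higher with 4E-T encode enzymes or a feedback regulator, and the 2 called lower encode transcription factors. With 4E-T, Asns, Trib3 and Chac1 were higher, by 1.49-fold, 1.34-fold and 1.31-fold, and Atf4 and Atf5 were lower, at 0.718 and 0.626 of the IgG level. These 5 passed a Benjamini-Hochberg adjusted p under 0.05 in limma's moderated test on log2(FPKM + 1). FPKM is here the fragment number divided by transcript length and by the library's size factor, a scaling value that need not follow its read total. The other 5 members did not pass. Calls of this kind were common: 34.3% of tested genes were called higher and 15.2% lower, so 3 and 2 of 10 members are near these shares. Leaving out IgG library 1 gave 0 higher and 2 lower member calls, where 24.7% and 8.75% of tested genes were called, and at an unadjusted limma p under 0.05 there were 3 and 2. Leaving out IgG library 2 gave 0 and 1, with 19.0% and 10.1% of tested genes and again 0 and 1 members by the unadjusted p. Leaving out 4E-T library 1 gave 1 and 2, with 26.5% and 13.7% of tested genes, and leaving out 4E-T library 2 gave 4 and 2, with 33.8% and 13.9%. The median log2 difference was -0.064 over the members and 0.16 over all tested genes. Each member had the same sign of difference in both experiments, though Sesn2 had only 0.018 in experiment 2. The same held for at least 75.7% of tested genes, those whose libraries did not overlap between the antibodies. The 4E-T libraries lay wholly above the IgG libraries for 5 members and wholly below them for 4, where 50.5% and 25.2% of tested genes did so. Ddit4 was the member whose libraries overlapped.

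**Figure D1:**
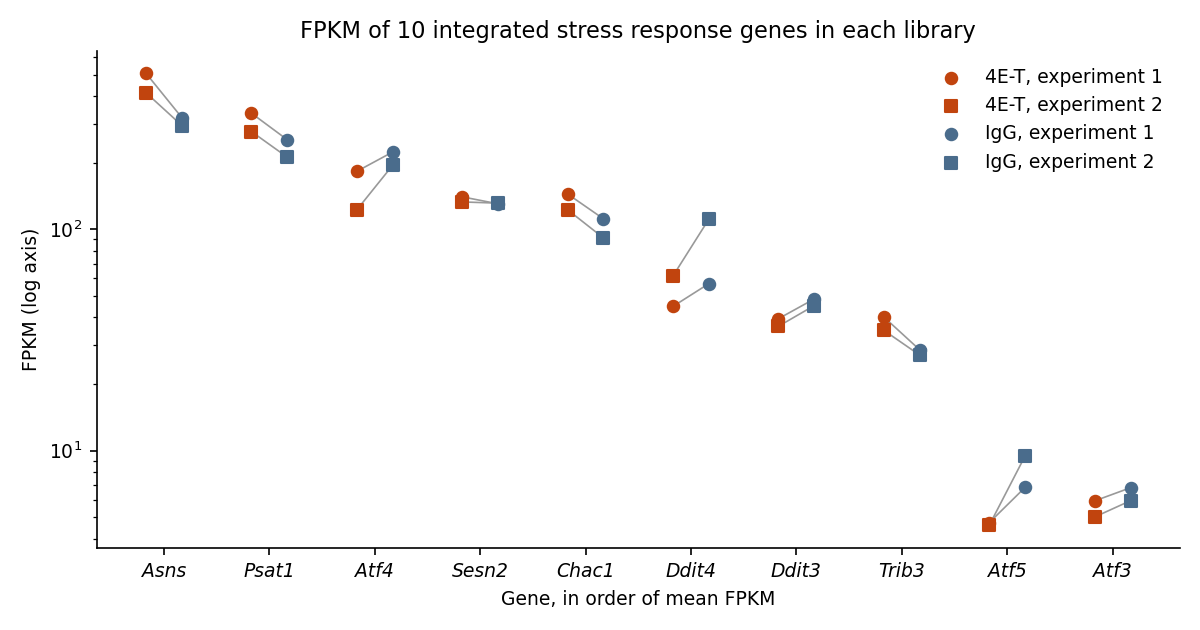
FPKM (log axis) of the 10 members in each of the 4 libraries, 4E-T at the left and IgG at the right of each gene, with lines joining libraries of the same experiment. Asns, Psat1, Chac1 and Trib3 have both 4E-T libraries above both IgG libraries, while Atf4, Ddit3, Atf5 and Atf3 have both below them.

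In level the members spanned the range from strongly represented to modest transcripts. By mean FPKM over the 4 libraries the order was Asns (384 FPKM), Psat1 (269), Atf4 (181), Sesn2 (134), Chac1 (117), Ddit4 (68.6), Ddit3 (42.4), Trib3 (32.6), Atf5 (6.40) and Atf3 (5.91). Neighbours in this order whose library values overlapped were Asns and Psat1, Psat1 and Atf4, Atf4 and Sesn2, Sesn2 and Chac1, Chac1 and Ddit4, Ddit4 and Ddit3, Ddit3 and Trib3, and Atf5 and Atf3. Within every single library, though, Asns was above Psat1, Psat1 above Atf4 and Ddit4 above Ddit3. The other overlapping neighbours changed order between libraries. Trib3 and Atf5 were set apart, by 5.10-fold in mean FPKM. Of the tested genes, 99.6% had a lower mean FPKM than Asns and 33.2% a lower one than Atf3. FPKM are per length, so they allow this comparison between genes. The reads behind the members, recovered from FPKM, ran from 588 for Atf5 in 4E-T library 2 to 76405 for Asns in 4E-T library 1.

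ATF4 acts on many of its target genes through the C/EBP-ATF response element. The members' promoters that hold its letters are shown here, a choice made after the calls were known. The letters TGATGNAA, on either strand, were looked for in windows from 250 bases before to 50 bases after the starts of all 10 members (RefSeq, GRCm38.p6). They occurred in the windows of 4 members, Asns, Chac1, Trib3 and Atf3, and in those of 4.51% of 27025 genes with a window. Positions count from the first transcribed base, before which numbers are negative. The match lay at -23 to -16 in Asns (chr6:7693210-7693289, minus strand), at -193 to -186 in Chac1 (chr2:119351013-119351092, plus strand), at -110 to -103 in Atf3 (chr1:191183400-191183479, minus strand) and at 15 to 22 in Trib3 (chr2:152344028-152344057, minus strand). Capitals mark the matched letters, which in Chac1, Atf3 and Trib3 stand on the opposite strand and so appear as their reverse complement.
Asns: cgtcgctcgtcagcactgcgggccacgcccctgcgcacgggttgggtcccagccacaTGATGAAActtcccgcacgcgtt
Chac1: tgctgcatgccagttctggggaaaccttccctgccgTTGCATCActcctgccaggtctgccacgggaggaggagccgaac
Atf3: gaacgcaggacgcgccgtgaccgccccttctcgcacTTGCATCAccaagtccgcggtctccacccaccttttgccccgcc
Trib3: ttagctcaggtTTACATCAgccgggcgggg
Of these 4 genes, Asns, Chac1 and Trib3 were called higher with 4E-T, and Atf3 was not called. No match was found in the windows of Psat1, Sesn2, Ddit4, Ddit3, Atf4 or Atf5, which says only that these letters are not in those windows. The motif was chosen with the results known, and a match is a description, not a binding site. The members were chosen as genes of this response, so setting their matches against 4.51% of genes is no test. Whether genes with a match were called higher more often than other genes was not tested.

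Among the transcription factor genes, Atf4, the central factor of the response, had 183 and 122 FPKM with 4E-T, against 224 and 195 FPKM with IgG (chromosome 15, 80255184 to 80257545, GRCm38.p6 in RefSeq, as for all loci given here). Both 4E-T libraries were below both IgG libraries, and 4E-T library 2 was well below 4E-T library 1. The log2 difference was -0.48 ± 0.18 (SE, n = 2 per antibody; limma adjusted p = 0.0316). It was -0.29 within experiment 1 and -0.66 within experiment 2. The difference was -0.76 without 4E-T library 1. The call was lost without 4E-T library 2, where the difference was -0.19 (limma adjusted p = 0.385), without IgG library 1 (limma adjusted p = 0.310), without IgG library 2 (0.140) and with no filter on low values (0.109).

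Atf5, a related basic leucine zipper factor gene (chromosome 7, 44812256 to 44816658), had 4.72 and 4.59 FPKM with 4E-T, against 6.82 and 9.45 FPKM with IgG. The 4E-T libraries were close to each other and below both IgG libraries, which differed more. Its log2 difference was -0.68 ± 0.14 (SE; limma adjusted p = 0.000307), -0.45 in experiment 1 and -0.90 in experiment 2. The Atf5 call was kept in all 13 alternative settings, with differences from -0.89 to -0.47. In the RefSeq table the locus overlaps that of Nup62, a nuclear pore gene, which had 98.1 and 83.4 FPKM with 4E-T, against 56.3 and 52.8 FPKM with IgG. Reads carry no strand here and cannot be assigned between overlapping exons of these genes, and the part of that in the Atf5 value was not tested.

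Ddit3, which encodes the factor CHOP (chromosome 10, 127290793 to 127296291), had 39.4 and 36.4 FPKM with 4E-T, against 48.4 and 45.2 FPKM with IgG. The groups did not overlap, and both experiments gave nearly the same difference, -0.29 and -0.30. The log2 difference was -0.30 ± 0.14 (SE) and was not called (limma adjusted p = 0.0834, 95% interval from -0.59 to -0.0061). With the experiment as a block it was called (limma adjusted p = 0.0410). Its locus overlaps Mars, the cytosolic methionyl-tRNA synthetase gene, which was higher with 4E-T (330 and 287 FPKM, against 173 and 147 FPKM with IgG). Here too the part of shared reads was not tested.

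Atf3, a stress-induced factor gene of the same family (chromosome 1, 191170296 to 191183333), had 5.92 and 5.01 FPKM with 4E-T, against 6.79 and 5.93 FPKM with IgG. The libraries stood apart by a narrow margin, 5.92 against 5.93 FPKM at the nearest. Its log2 difference of -0.19 ± 0.14 (SE) was not called (limma adjusted p = 0.253, 95% interval from -0.47 to 0.088). It was -0.29 without 4E-T library 1, -0.087 without 4E-T library 2 and -0.10 without IgG library 1. Reads at genes of the chemical senses differed between the antibodies too: 193 receptor genes for smell, pheromones and taste summed to 647 and 857 reads with 4E-T, against 2931 and 3826 reads with IgG. Their part in the results for the low members Atf3 and Atf5 was not tested. Over the 4 factor genes, the summed FPKM was 233 and 169 with 4E-T, against 286 and 255 with IgG.

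**Figure D2:**
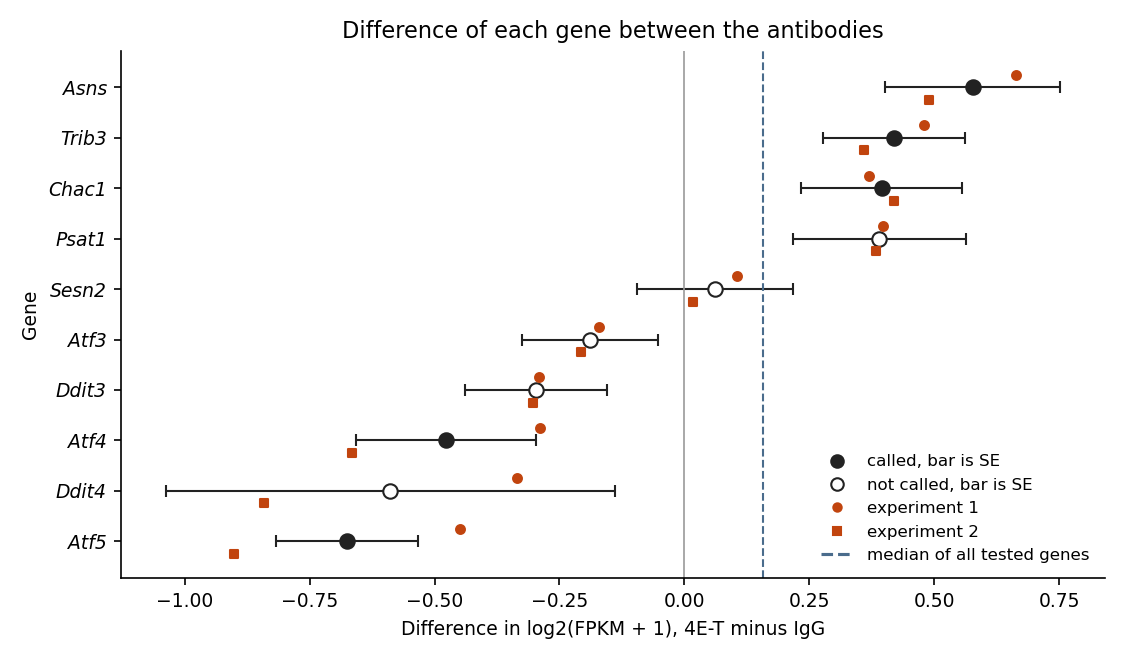
Difference in log2(FPKM + 1), 4E-T minus IgG, for each member. Large points with bars give the difference and its SE (filled where called), small points give experiments 1 and 2, and the dashed line is the median of all tested genes, 0.16. Asns, Trib3, Chac1 and Psat1 lie to the right of the dashed line, and Sesn2 and the other members lie to its left.

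Of the 3 enzyme genes, Asns, whose product asparagine synthetase makes asparagine from aspartate, had the largest increase among the members (chromosome 6, 7675165 to 7693209). It had 507 and 414 FPKM with 4E-T, against 320 and 295 FPKM with IgG. Both 4E-T libraries were above both IgG libraries by a wide margin. The log2 difference was 0.58 ± 0.18 (SE; limma adjusted p = 0.00759), 0.66 in experiment 1 and 0.49 in experiment 2. Leaving out IgG library 1 (limma adjusted p = 0.0933) or IgG library 2 (0.174) ended the call.

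Chac1, which encodes an enzyme that breaks down glutathione (chromosome 2, 119351242 to 119354326), had 144 and 122 FPKM with 4E-T, against 111 and 91.3 FPKM with IgG. The groups did not overlap, and the experiments gave 0.37 and 0.42. Its log2 difference was 0.40 ± 0.16 (SE; limma adjusted p = 0.0423), just under the threshold. The call was lost without 4E-T library 1 (limma adjusted p = 0.207), IgG library 1 (0.0885) or IgG library 2 (0.424, where the difference was 0.25), and with no filter (0.0972).

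Psat1, which encodes the aminotransferase of the serine synthesis pathway (chromosome 19, 15905123 to 15925059), had 335 and 277 FPKM with 4E-T, against 254 and 212 FPKM with IgG. Its libraries were ordered as those of Chac1, and its experiments gave 0.40 and 0.38. The log2 difference of 0.39 ± 0.17 (SE) was not called (limma adjusted p = 0.0610, 95% interval from 0.037 to 0.74), but was called with the experiment as a block (limma adjusted p = 0.0370). It was 0.25 without 4E-T library 1 and 0.26 without IgG library 2. The summed FPKM of the 3 enzyme genes was 986 and 813 with 4E-T, against 685 and 598 with IgG. The genes of the enzymes before and after Psat1 in serine synthesis, Phgdh (0.94 ± 0.18; limma adjusted p = 0.000132) and Psph (0.37 ± 0.15; limma adjusted p = 0.0407), were both higher, and were named after their values were seen. Phgdh missed the threshold without IgG library 2 (limma adjusted p = 0.0592), and the Psph call was kept in 6 of 13 alternative settings.

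Of the 3 regulator genes Trib3 was called, and Sesn2 and Ddit4 were not. Trib3, a pseudokinase gene whose product restrains ATF4 in a feedback loop (chromosome 2, 152337425 to 152344060), had 40.1 and 34.9 FPKM with 4E-T, against 28.5 and 27.0 FPKM with IgG. Both 4E-T libraries were above both IgG libraries. The log2 difference was 0.42 ± 0.14 (SE; limma adjusted p = 0.0151), 0.48 in experiment 1 and 0.36 in experiment 2. The call was lost without 4E-T library 1 (limma adjusted p = 0.129), IgG library 1 (0.0776) or IgG library 2 (0.140).

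Sesn2 encodes a leucine-sensing inhibitor of the growth kinase complex mTORC1 (chromosome 4, 132492804 to 132510456). It had 140 and 133 FPKM with 4E-T, against 130 and 131 FPKM with IgG. In relative terms these 4 values lay closer together than those of any other member, and the difference was not detectable: 0.061 ± 0.16 (SE; limma adjusted p = 0.769), with a 95% interval from -0.26 to 0.38. Leaving out 4E-T library 1 gave 0.023, and leaving out the other 4E-T library gave 0.099. Its sign turned under the 3 other scalings of the libraries.

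Ddit4, another mTORC1 inhibitor gene, also known as REDD1 (chromosome 10, 59949675 to 59951770), had 44.8 and 61.6 FPKM with 4E-T, against 56.8 and 111 FPKM with IgG. The values in both groups were higher in experiment 2, and IgG library 2 stood far above the other libraries. Its log2 difference of -0.59 ± 0.45 (SE) was not called (limma adjusted p = 0.380, 95% interval from -2.06 to 0.88). Within experiments it was -0.34 and -0.84, and with the experiment as a block it was called lower (limma adjusted p = 0.00262). Without IgG library 2 the difference was -0.11 (limma adjusted p = 0.739), and without IgG library 1 it was -1.07 (limma adjusted p = 0.00761). Leaving out 4E-T library 1 gave -0.36, and leaving out 4E-T library 2 gave a call (-0.81, limma adjusted p = 0.00138).

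With the experiment as a block, 4 members were called higher and 4 lower, where 37.7% of tested genes were called higher and 16.7% lower. Besides the 5 calls above these were Psat1, Ddit3 and Ddit4. In the authors' deposited table of their own comparison, 4 members had an adjusted p under 0.05 and a higher value with 4E-T (Asns, Trib3, Chac1 and Psat1). By the same threshold 2 had a lower value (Atf4 and Atf5). Of all 21738 listed genes, 20.0% were higher and 11.9% lower in this way. These listed genes include 9153 that failed the filter on low values, which all 10 members passed, so the shares are not a like comparison. In the authors' deposited table the log2 fold changes were 0.58 for Asns, 0.44 for Trib3, 0.40 for Chac1, 0.39 for Psat1, -0.45 for Atf4 and -0.80 for Atf5.

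The split of the calls depended on how the libraries were scaled. As deposited, the median tested gene was higher with 4E-T by 0.16, while over all 21738 genes, with no filter, the median was -0.0072. The deposited values already carried the size factors. Median ratio scaling, a second scaling fitted to tested genes with values above 0 in every library, brought the tested median to -0.0025. With that scaling 1 member was called higher (Asns, 0.39, limma adjusted p = 0.0442) and 4 lower (Atf4, Atf5, Ddit3 and Atf3), where 22.8% of tested genes were called higher and 23.6% lower. Trib3 then had a difference of 0.24 (limma adjusted p = 0.101) and Chac1 of 0.21 (0.224), while Atf3 had -0.35 (0.0278) and Ddit3 -0.48 (0.00431). The plot of settings gives the difference of each member under every alternative.

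**Figure D3:**
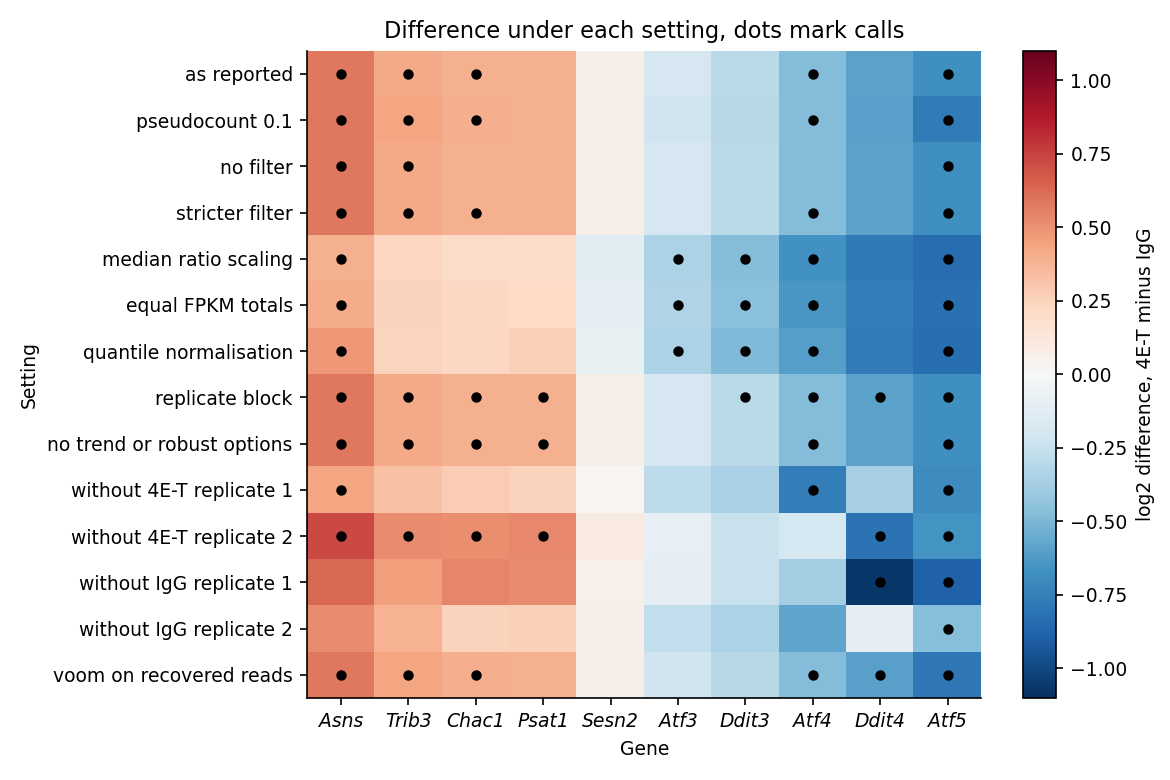
Log2 difference (colour), 4E-T minus IgG, of each member (columns) as reported and in 13 alternative settings (rows), with a dot where the limma adjusted p was under 0.05. Atf5 has a dot in every row, Asns in all rows but those without IgG library 1 or 2, and Sesn2 in none.

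Levels within a library do not depend on the scaling between libraries. Asns was 2.77 and 3.38 times as high as Atf4 in the 4E-T libraries, against 1.43 and 1.51 times in the IgG libraries. Psat1 had 1.83 and 2.26 times the FPKM of Atf4 with 4E-T, against 1.14 and 1.09 times with IgG. For Chac1 the ratio to Atf4 was 0.790 in 4E-T library 1, with equal levels of both in 4E-T library 2, against 0.499 and 0.469 with IgG, and for Trib3 it was 0.220 and 0.285 with 4E-T, against 0.128 and 0.139 with IgG. In these 4 genes every 4E-T ratio was above every IgG ratio. The same held for Sesn2 and Atf3, so that 6 of 9 ratios to Atf4 were higher with 4E-T without overlap, 3 overlapped and 0 were lower. Among all tested genes 69.5% of ratios to Atf4 were higher without overlap and 4.98% lower, so the members' count is near that of genes in general. All 9 ratios share the Atf4 values, and Atf4 was chosen as the base after the results were seen. Among the other factor genes, the ratio to Atf4 was higher without overlap for Atf3 (0.0324 and 0.0409 with 4E-T, against 0.0304 and 0.0305 with IgG). The ratio of Ddit3 to Atf4 was 0.216 and 0.298 with 4E-T, against 0.217 and 0.232 with IgG, and these ranges overlap, as did those of Atf5.

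**Figure D4:**
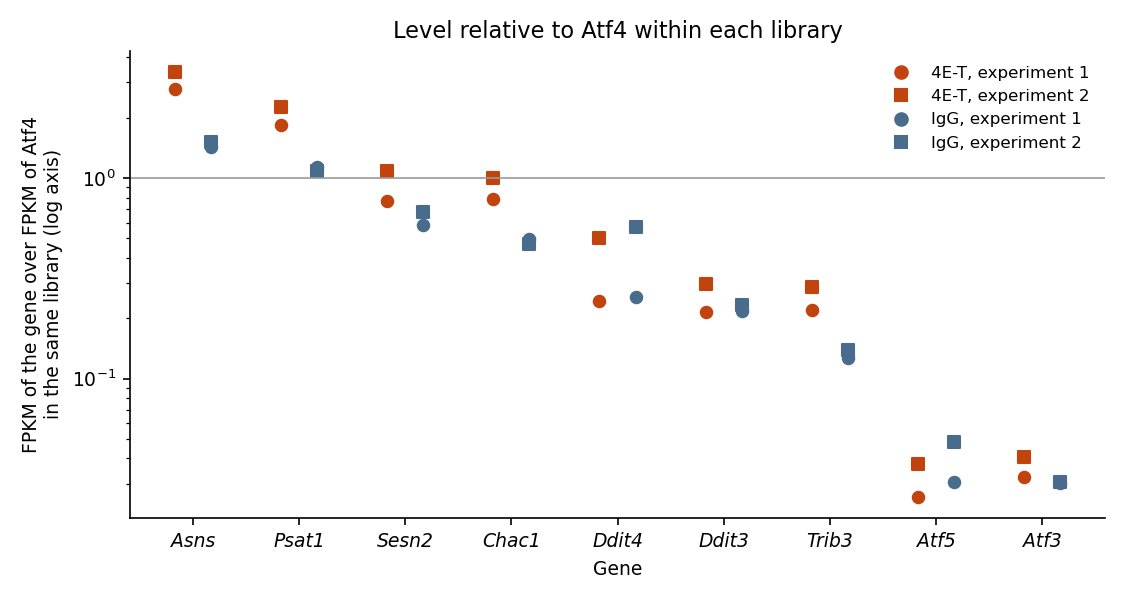
FPKM of each member divided by the FPKM of Atf4 in the same library (log axis), with 4E-T at the left and IgG at the right of each gene. The 4E-T ratios of Asns, Psat1, Chac1 and Trib3 lie above their IgG ratios, and those of Ddit4, Ddit3 and Atf5 overlap.

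Transcript length moved with the difference over all genes. In the shortest quartile of tested genes by exon length, 18.4% were called higher and 20.7% lower with 4E-T, and in the longest quartile 46.5% and 11.1%. Of the members, Atf4 (1724 bp), Chac1 (1637 bp), Ddit4 (1755 bp), Ddit3 (969 bp) and Atf5 (1816 bp) fell in the shortest quartile, Asns (2016 bp), Psat1 (2617 bp), Trib3 (2026 bp) and Atf3 (1984 bp) in the next, and Sesn2 (3475 bp) in the one after. The median difference was 0.0041 in the shortest quartile and 0.16 in the next. The part of length in the members' differences was not tested.

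By the distance between centred log2 values over the 4 libraries, the tested genes most like Atf4 were Gm12312 (distance 0.108), Rps3a3 (0.113) and Fam234b (0.124). Fam234b had 25.2 and 17.8 FPKM with 4E-T, against 29.3 and 26.5 FPKM with IgG. Gm12312 was low, at 2.87 and 1.85 FPKM with 4E-T, against 4.00 and 3.51 FPKM with IgG. Rps3a3 had 53.0 and 36.6 FPKM with 4E-T, against 61.2 and 58.7 FPKM with IgG. The distance rests on 4 values per gene, searched over all tested genes, so likeness is no sign of a shared role.

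Upstream of the members, 19 genes for eIF2, its kinases, its exchange factor eIF2B and its phosphatases were tested, and 8 were called higher and 1 lower. Of all tested genes, 34.3% were called higher and 15.2% lower. With median ratio scaling these shares were 22.8% and 23.6%, and with the experiment as a block 37.7% and 16.7%. The shares with a library left out are given above beside the members' calls. Of the 4 kinase genes, Eif2ak3, which encodes the ER sensor PERK, was higher (0.63 ± 0.15; limma adjusted p = 0.000934), as was Eif2ak4, the amino acid sensor GCN2 (0.36 ± 0.15; 0.0400). Eif2ak2, which encodes the RNA sensor PKR, was lower (-0.45 ± 0.13; limma adjusted p = 0.00520), and the haem sensor gene Eif2ak1 had a difference of 0.062 ± 0.14 (0.743). Gcn1l1, whose product activates GCN2, was higher by 1.42 ± 0.14 (limma adjusted p = 6.94e-09), with 46.5 and 38.9 FPKM with 4E-T, against 15.6 and 14.9 FPKM with IgG. Oma1, a mitochondrial protease gene of the response, was higher by 0.83 ± 0.14. The phosphatase subunit genes Ppp1r15a (0.16 ± 0.14) and Ppp1r15b (-0.26 ± 0.15) were not called, but Ppp1r15b was called lower under the 3 other scalings (limma adjusted p from 0.0038 to 0.0099). Without IgG library 2, 4 genes of this list were called higher. Lower calls numbered 0 without IgG library 1 and 2 without 4E-T library 1, with the experiment as a block 2, and with median ratio scaling 4. The Eif2ak4 call was kept in 5 of 13 alternative settings, while leaving out IgG library 2 ended that of Eif2ak3 (limma adjusted p = 0.0599) and leaving out IgG library 1 that of Eif2ak2 (0.0671).

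Other genes listed here as ATF4 targets held calls in both directions in each list, as the tested genes did in general. Of all tested genes, 34.3% were called higher and 15.2% lower, or 22.8% and 23.6% with median ratio scaling. Of 16 genes of serine, folate and amino acid metabolism 9 were called higher and 2 lower, with a median of 0.38. Cbs, the enzyme that joins serine and homocysteine, was higher by 0.98 ± 0.16 and the mitochondrial folate enzyme gene Mthfd1l by 0.96 ± 0.16, while the proline enzyme gene Pycr1 (-0.84 ± 0.14) and Chac2, a paralog of Chac1 (-0.43 ± 0.14), were lower. The Chac2 call was lost without 4E-T library 2 (limma adjusted p = 0.0723) or IgG library 1 (0.131), and 3 genes of this list were called higher without IgG library 2. The list's median was 0.23 without 4E-T library 1 and 0.19 with median ratio scaling. Among 10 amino acid transporter genes 4 were called higher and 1 lower, with a median of 0.25. Slc3a2, the shared heavy chain of several exchangers (0.84 ± 0.21), and the cationic transporter gene Slc7a3 (0.76 ± 0.23) were higher, and the cystine transporter gene Slc7a11 was lower (-0.67 ± 0.14). Without IgG library 2 the calls of Slc3a2 (limma adjusted p = 0.112) and Slc7a3 (0.136) were lost, and 1 transporter gene was called higher, while without 4E-T library 1 there were 2. Median ratio scaling also ended the Slc7a3 call (limma adjusted p = 0.0566). The transporters' median was 0.063 without IgG library 2, 0.13 without 4E-T library 1, 0.45 without 4E-T library 2, 0.44 without IgG library 1 and from 0.037 to 0.090 under the 3 other scalings. Lower calls numbered 2 with the experiment as a block and 2 without 4E-T library 1. Of 16 genes for transcription factors and stress regulators, 5 were called higher and 3 lower, with a median of 0.25. Sqstm1, an autophagy receptor gene (0.93 ± 0.16), and the stress hormone gene Gdf15 (0.88 ± 0.15) were higher, and the stress factor gene Nupr1 (-1.21 ± 0.14) and the autophagy gene Map1lc3b (-0.70 ± 0.14) were lower. Higher calls in this list numbered 3 without 4E-T library 1 and 2 without IgG library 2, median ratio scaling gave 3 higher and 5 lower with a median of 0.064, and the fit with the experiment as a block gave 8 higher and 4 lower.

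The other arms of the ER stress response held higher calls and no lower ones. Of 21 tested genes of the ATF6 and IRE1 arms 13 were called higher with 4E-T and 0 lower, with a median of 0.46 (lower at an unadjusted limma p under 0.05: 0 genes, and lower by voom: 0 genes). The ER chaperone gene Hsp90b1 was higher by 1.25 ± 0.18, with 215 and 149 FPKM with 4E-T, against 83.6 and 66.5 FPKM with IgG. Herpud1, a gene of ER-associated degradation, was higher by 1.18 ± 0.14. With median ratio scaling 10 of the 21 genes were called higher and 0 lower, without IgG library 2 there were 7 higher calls and without 4E-T library 1 there were 8. The median was 0.26 without 4E-T library 1 and 0.27 with median ratio scaling. Of 8 tested paralogs of the members 4 were called higher and 2 lower. Among these calls, Chac2 (lower) and Jdp2 (higher) were also counted in the lists of ATF4 targets. Trib1 (0.78 ± 0.14) was higher like Trib3, and Ddit4l (-0.45 ± 0.14) was lower, but not when IgG library 1 (limma adjusted p = 0.0988) or IgG library 2 (0.0746) was left out. Without 4E-T library 1, IgG library 1 or IgG library 2, 2 paralogs were called higher, and lower calls numbered 0 without IgG library 1 and 1 without IgG library 2 or 4E-T library 2. Fos, which shares the basic leucine zipper with Atf3, was higher by 1.13 ± 0.14. The lists were chosen with earlier results of these data known, and 34.3% of all tested genes were called higher and 15.2% lower.

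**Figure D5:**
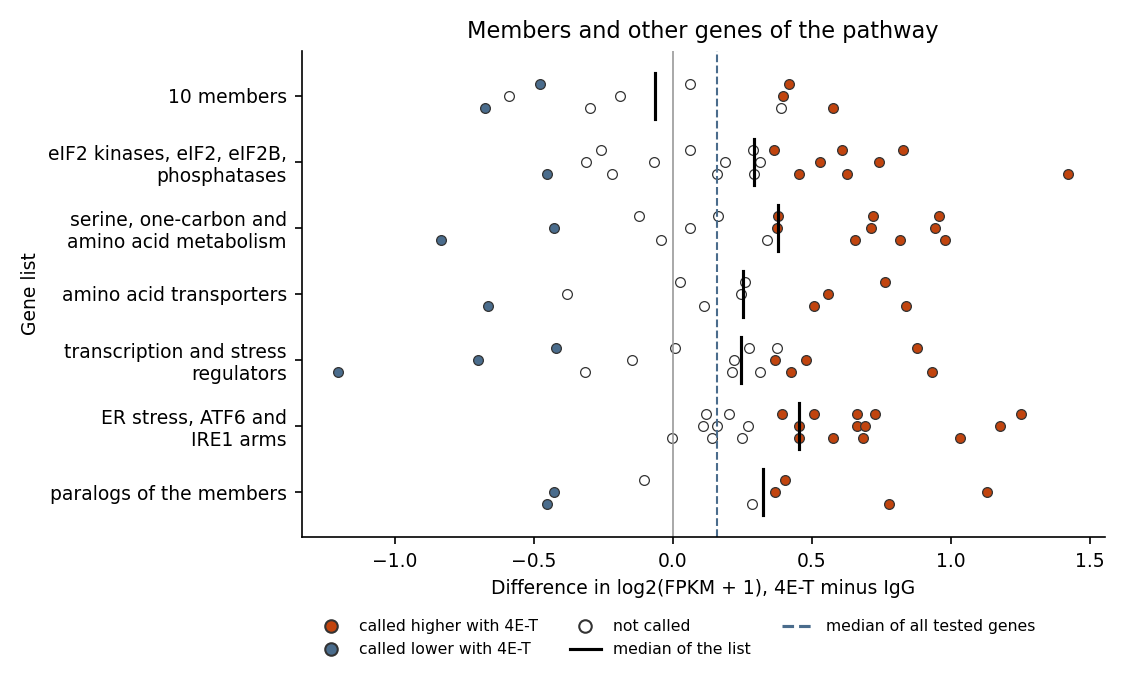
Difference in log2(FPKM + 1), 4E-T minus IgG, of the members and of the genes of 6 pathway lists (1 point per gene, orange where called higher, blue where called lower, white where not called). Black bars are the list medians, from -0.064 for the members to 0.46 for the ER stress list, and the dashed line is the median of all tested genes, 0.16.

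Over the series as a whole, the libraries held between 72769612 and 85828188 recovered reads. All 10 markers of neural stem and precursor cells were tested, led by Fabp7, with summed FPKM of 5729 and 4333 with 4E-T, against 3679 and 3811 with IgG. Markers of other cells were low: 2 of 5 neuron markers, 1 of 5 oligodendrocyte markers, 3 of 5 ependymal markers, 0 of 8 microglia and blood cell markers and 0 of 7 endothelial and mural cell markers were tested. Summed neuron markers were at 13.4 and 13.1 FPKM with 4E-T, against 11.1 and 9.90 FPKM with IgG, and ependymal markers at 10.4 and 10.3 FPKM with 4E-T, against 10.2 and 12.4 FPKM with IgG. Of 4 astrocyte markers 3 were tested, with sums of 805 and 638 FPKM with 4E-T, against 335 and 301 FPKM with IgG, nearly all from Aldh1l1. The transcript of 4E-T itself, Eif4enif1, did not differ detectably (limma adjusted p = 0.390).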

How the data were processed

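Per the file headers, the authors deposited FPKM for each gene and library. The tools named in the submitters' processing notes are STAR 2.6.0c, HTSeq 0.6.1p2, Trim Galore 0.5.0, FastQC 0.11.5, DESeq and DESeq2 1.26.0, with the build mm10, and the authors' settings are not given in the sources used here. Per the labels, the MAGNA RIP kit, SMART-Seq v4 cDNA synthesis and Nextera XT were used, a chemistry that does not mark strand. The baseMean (a signal, the mean of normalised reads), the log2 fold change, its standard error and test statistic (scores), the p-values and the linear fold change were deposited by the authors for 4E-T against IgG.

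FPKM are not counts, so limma 3.58.1 (R 4.3.3, trend and robust options) was fitted to log2(FPKM + 1) over the 12585 genes that reached an FPKM of 1 in 2 or more libraries, with the antibody as the only term. Differences are 4E-T minus IgG on that scale, which understates changes of low genes, and folds were taken from them. p-values were adjusted by Benjamini-Hochberg over all tested genes, with a threshold of 0.05. With 2 residual degrees of freedom the test borrows its spread from all genes, and since nothing says whether cultures were separate, p-values reflect only how far these libraries vary, possibly for technical reasons. FPKM and baseMean together gave whole reads for 100% of 86952 values within 0.01 read, and exon lengths, scaled on 10 mitochondrial genes. On simulated libraries of 12585 genes limma called 62% of genes changed 1.5-fold, 100% of those changed 2-fold and 0.113% of unchanged ones. There only 100 genes were changed by each fold, with independent noise of the fitted spread and no shift common to a library. In the data 34.3% of tested genes were called higher and 15.2% lower, so the simulated rates need not hold for them. Libraries of the same antibody differed by a chi-square of 48.5 (4E-T) and 32.4 (IgG) per degree of freedom, so none repeats another.

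The titles name the experiment, which was taken as pairing the libraries. Same-numbered libraries deviated together only weakly from their antibody's mean (Pearson's r = 0.064 over 12585 genes), and the fit with the block is given where it changes a member's call or moves a list's count of calls by over 1.5 times.

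The members, lists and tests were chosen with earlier results of these data known. Named by rule were all members, the 4 eIF2 kinase and 2 phosphatase subunit genes, up to 2 called genes per direction of each list with the largest differences, and the 3 genes most like Atf4. RefSeq coordinates and promoter windows are of GRCm38.p6. Alternatives were another pseudocount, 2 other filters, 3 scalings, the block, limma without its options, voom on recovered reads and leaving out each library.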

Additional observations from a re-analysis of the deposited data

How the results depend on the processing

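Over 13 alternative settings the sign of 9 members' differences was kept, and Sesn2 changed sign under median ratio scaling (-0.13), equal FPKM totals (-0.11) and quantile normalisation (-0.086). Under these 3 scalings 1 member was called higher and 4 lower, against 3 and 2 as reported (of tested genes, 23.8% and 22.2% with equal FPKM totals, 25.1% and 22.5% with quantile normalisation), and they centre the libraries anew by construction. Median ratio scaling gave 2870 genes called higher and 2969 lower, against 4318 and 1912 as deposited, so that 49.2% rather than 69.3% of calls were higher. Equal FPKM totals gave 51.7% and quantile normalisation 52.8%. Genes of the pathway lists, 42 called higher and 8 lower of 88, had 15 lower calls with median ratio scaling, 14 with equal FPKM totals and 15 with quantile normalisation. With no filter 2 members were called higher and 1 lower, with 16.9% and 12.4% of 21738 genes. With the replicate block, the experiment number, 4 members were called higher and 4 lower, and no call of a named gene of the pathway lists changed. With voom on the recovered reads 3 were called higher and 3 lower, Ddit4 among them (limma adjusted p = 0.00852), with 35.3% and 15.2% of tested genes, and the cause was not tested. Leaving out 1 library in turn gave from 0 to 4 members called higher and from 1 to 2 lower, from 2389 to 4259 genes called higher and from 1101 to 1755 lower, and from 19 to 49 pathway genes called higher and from 5 to 10 lower, each with fewer libraries. A lone library is then assumed to vary like the others. Over these fits the Trib3 difference ran from 0.32 to 0.52 and that of Psat1 from 0.25 to 0.53, called without 4E-T library 2 (limma adjusted p = 0.00843). Without the trend and robust options Psat1 was called too (limma adjusted p = 0.0422). Every member had at least 588 reads in each library, and the 2 libraries per antibody limit the precision.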
